A study of Salmo salar with 45 samples.

Results

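The genes described here are the 60 genes whose expression varied most closely with that of *elavl3* among 45 Atlantic salmon (*Salmo salar*). They were chosen from 27876 genes with a mean of at least 1 CPM (counts relative to the scaled library total), out of 69389 genes in the tables, and thus make up 0.215% of the genes ranked. For each gene the log2 CPM of a fish was taken minus the mean of its diet, and the genes were ranked by the Pearson correlation (r) of these values with those of *elavl3* over the 45 fish. *elavl3* itself and *ret*, the receptor tyrosine kinase of the enteric neural crest, were left out of the ranking.

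Total RNA came from the distal intestine of pre-smolt salmon, 9 fish from each of 5 diets. By the study's methods the 9 fish of a diet came from 3 tanks, 3 from each, so that they are not 9 independent units of a diet. The positive control diet (MG) held 2 g β-glucan per kg feed, and the control diet (CD) held neither additive. The LP20, LP100 and LP500 diets held 20, 100 and 500 mg per kg feed of Feed LP20™, a commercial form of heat-killed *Lactiplantibacillus plantarum* L-137. The intestine was sequenced as bulk tissue, so that fewer cells of a type and less RNA per cell cannot be told apart.

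ELAVL3 (HuC) belongs to the Hu family of RNA-binding proteins, which bind AU-rich stretches of mRNA and govern its splicing, stability and translation. In vertebrates it is best known as a marker of differentiated neurons, and in zebrafish its promoter is widely used to label neurons, including those of the gut. Enteric neurons lie between the muscle layers and in the submucosa, surrounded by glia, and enteroendocrine cells are hormone-secreting cells scattered in the epithelium that share part of their gene programme with neurons. Genes that vary with *elavl3* were therefore asked for as possible neural or enteroendocrine partners.

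None of the 60 genes was on any of the 20 lists of markers and pathway genes used here, which cover neurons, enteric transmitters, enteric neural crest, glia, enteroendocrine cells, synaptic vesicles, neuronal ion channels and neuronal RNA-binding proteins among others. The lists held 315 symbols, of which 97 could be matched to a salmon gene and 68 were expressed well enough to be tested, so that most listed genes were not analysed here. Of the 60 members, 19 carried a gene symbol, 27 had a LOC number only and 14 had no RefSeq name, so that most members could not have been found on a list. The absence of listed genes therefore says little by itself, and the r of the listed genes with *elavl3* is given further on. The members are called here by the rule that chose them, and not by a cell type.

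*elavl3* (ENSSSAG00000059465, chromosome 3, 64298033 to 64318667 on the plus strand of Ssal_v3.1) averaged 36.8 CPM. The lowest, median and highest fish had 32.4, 35 and 47.1 CPM on MG, and 28.4, 35.4 and 44.9 CPM on CD. With Feed LP20™ they had 29.9, 37 and 43.5 CPM on LP20, 30.3, 37.2 and 41.7 CPM on LP100, and 31.7, 39 and 49.1 CPM on LP500. The ranges of all 5 diets overlapped. Within diets the SD was 0.17 on the log2 scale, which lay at percentile 15 of the genes ranked, so *elavl3* was among the steadier genes. Its counts ran between 328 and 934 fragments per fish, for which counting error alone gives an SD of about 0.06 log2.

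*elavl3* was called in no diet. The log2 fold change was 0.03 for MG, 0.06 for LP20, 0.04 for LP100 and 0.16 for LP500 over CD, each with a standard error of 0.08 (edgeR adjusted p = 0.968, 0.840, 0.860 and 0.235 in that order). For LP500, 8 of 9 fish lay above the CD median. An exact two-sided permutation test of mean log2 CPM, over every regrouping of 9 against 9 fish, gave p = 0.0811 for LP500 against CD and 0.324 after adjustment over the 4 diets. Without label run 2 of LP500 the same exact test gave p = 0.0178, at a difference of 0.24 log2, and without CD fish A003 (and MG fish A007, which does not enter this test) it gave p = 0.0155, at 0.20 log2, both before adjustment. These were 2 of 8 alternatives. Under the other 6 the exact test gave unadjusted p between 0.0513 (without CD label run 1) and 0.3 (without LP500 label run 1). A label run here is a set of 3 fish with consecutive numbers within a diet.

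**Figure D1:**
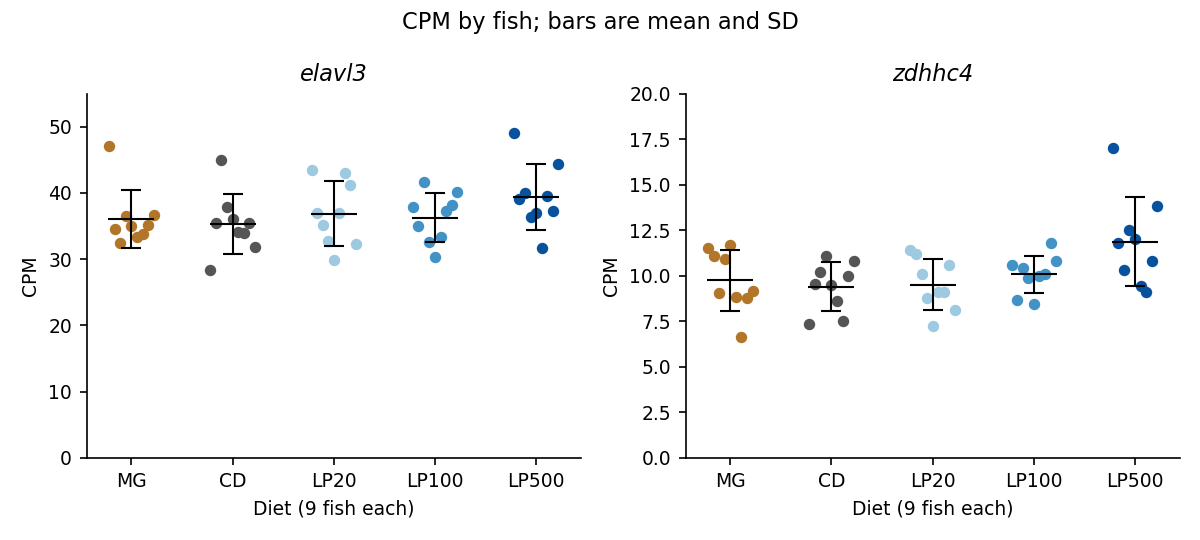
CPM of *elavl3* (left) and of *zdhhc4* (right) in every fish, by diet; each point is 1 fish of 9, the long dash is the mean and the bars are 1 SD. The *elavl3* points of all diets overlap, between 28.4 and 49.1 CPM, and the LP500 points of *zdhhc4* reach 17.0 CPM against 11.1 CPM on CD.

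The r values that chose the members are given as a description. They ran from 0.673 to 0.518 with a median of 0.550. The member with the highest r was ENSSSAG00000094153 (chromosome 15, 76.1 CPM), and the last was *dok7b*, which in mammals encodes an adaptor of the receptor kinase MuSK at the neuromuscular junction (r = 0.518, 141 CPM). Just inside the limit stood ENSSSAG00000112312, LOC106589464 and *dok7b*, all at 0.518, and just outside stood LOC100194724 at 0.515, ENSSSAG00000006130 at 0.514 and LOC106570036 at 0.513. No gap thus separated members from the next genes.

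Over all genes ranked the median r was -0.01, and percentiles 1 and 99 were -0.427 and 0.437. The tails were of similar weight, for 48 genes had an r of -0.518 or lower, against the 60 at 0.518 or higher. The lowest r of any gene was -0.658. *ret* had r = -0.06 with *elavl3* at 4.63 CPM.

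**Figure D2:**
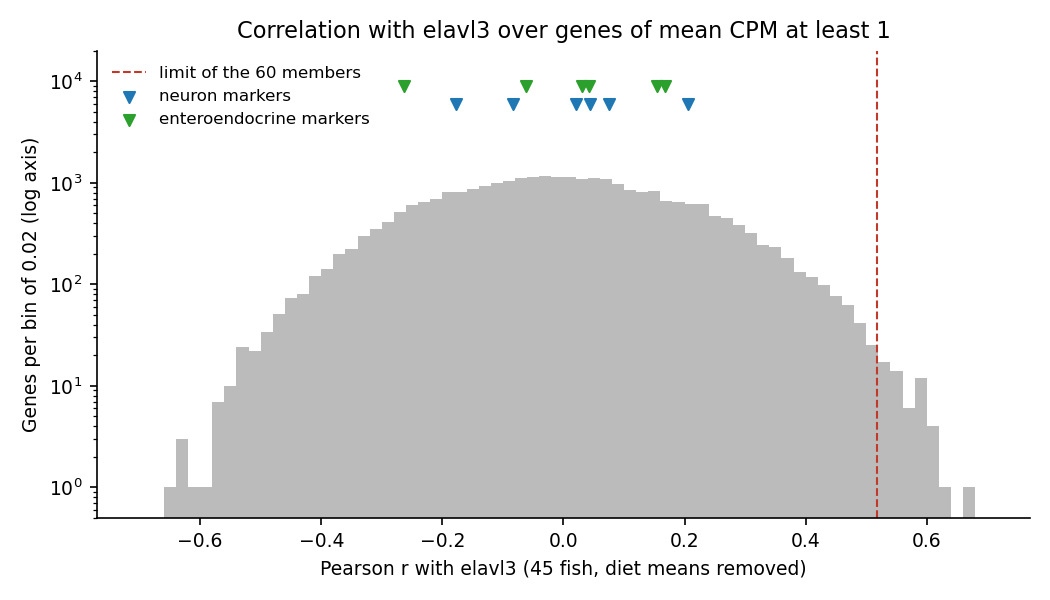
Histogram of Pearson r with *elavl3* over the 27876 genes ranked, in bins of 0.02, with the number of genes on a log axis; triangles mark the neuron and enteroendocrine marker genes tested and the dashed line marks the limit of the 60 members. The distribution is nearly symmetric about -0.01, and every triangle lies between -0.264 and 0.206, left of the limit at 0.518. The triangles of *pcsk1*, *scg2b*, *chga*, *sypa* and *stxbp1a* are genes below 1 CPM on average, which were not ranked and could not have been members.

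How firmly a gene belonged to the 60 depended on few fish. The Spearman correlation (rho) of the members with *elavl3* ran from 0.316 to 0.622. Without the 2 fish farthest from the median of *elavl3* (MG fish A007 and CD fish A003), the r of the members ran from 0.378 to 0.669, and 26 of 60 members were kept when the ranking was repeated. When label-run means were removed in place of diet means, 24 of 60 were kept, and with Spearman rho in place of r, 36 of 60 were kept. Just 5 members stayed under all 9 settings tried, namely *zdhhc4*, LOC123743162, ENSSSAG00000077062, ENSSSAG00000116432 and *spcs3*.

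The correlation was seen in each diet to a different extent. The median r of the members over 9 fish was 0.596 on MG, 0.491 on CD, 0.581 on LP20, 0.469 on LP100 and 0.735 on LP500. In 54 members r was above 0 in all 5 diets. The 6 exceptions included LOC106608565, with a lowest r of -0.222, and ENSSSAG00000116432, with a lowest r of -0.329. These differences between diets were not tested, since the rule used the same values.

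The members are next described by fish. Since they were chosen for following *elavl3* in these same values, the fish at both ends of *elavl3* must have most members on one side, and the counts are a description. In MG fish A007, the highest of its diet for *elavl3* (47.1 CPM), all 60 members lay above their diet mean, by a median of 0.30 log2. In LP500 fish A013, 57 members lay above it, by a median of 0.31 log2, and in CD fish A003, 54 members did, by 0.16 log2. At the low end, 59 members of LP500 fish A027 lay below the diet mean, by a median of 0.38 log2, as did 57 of LP20 fish A056, by 0.33 log2, and 55 of CD fish A001, by 0.18 log2. Fish A013 also had the highest value of smooth muscle minus enterocyte markers of these 45 fish (2.53 log2), and A003 had the largest total count (22377591). Fish nearer the diet mean of *elavl3* differed in this count, from CD fish A074, where 30 lay above and 30 below, to LP20 fish A057 with 43 above and MG fish A044 with 45 above. Among the others LP20 fish A019 had 54 members above, and MG fish A045 had 53 below.

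**Figure D3:**
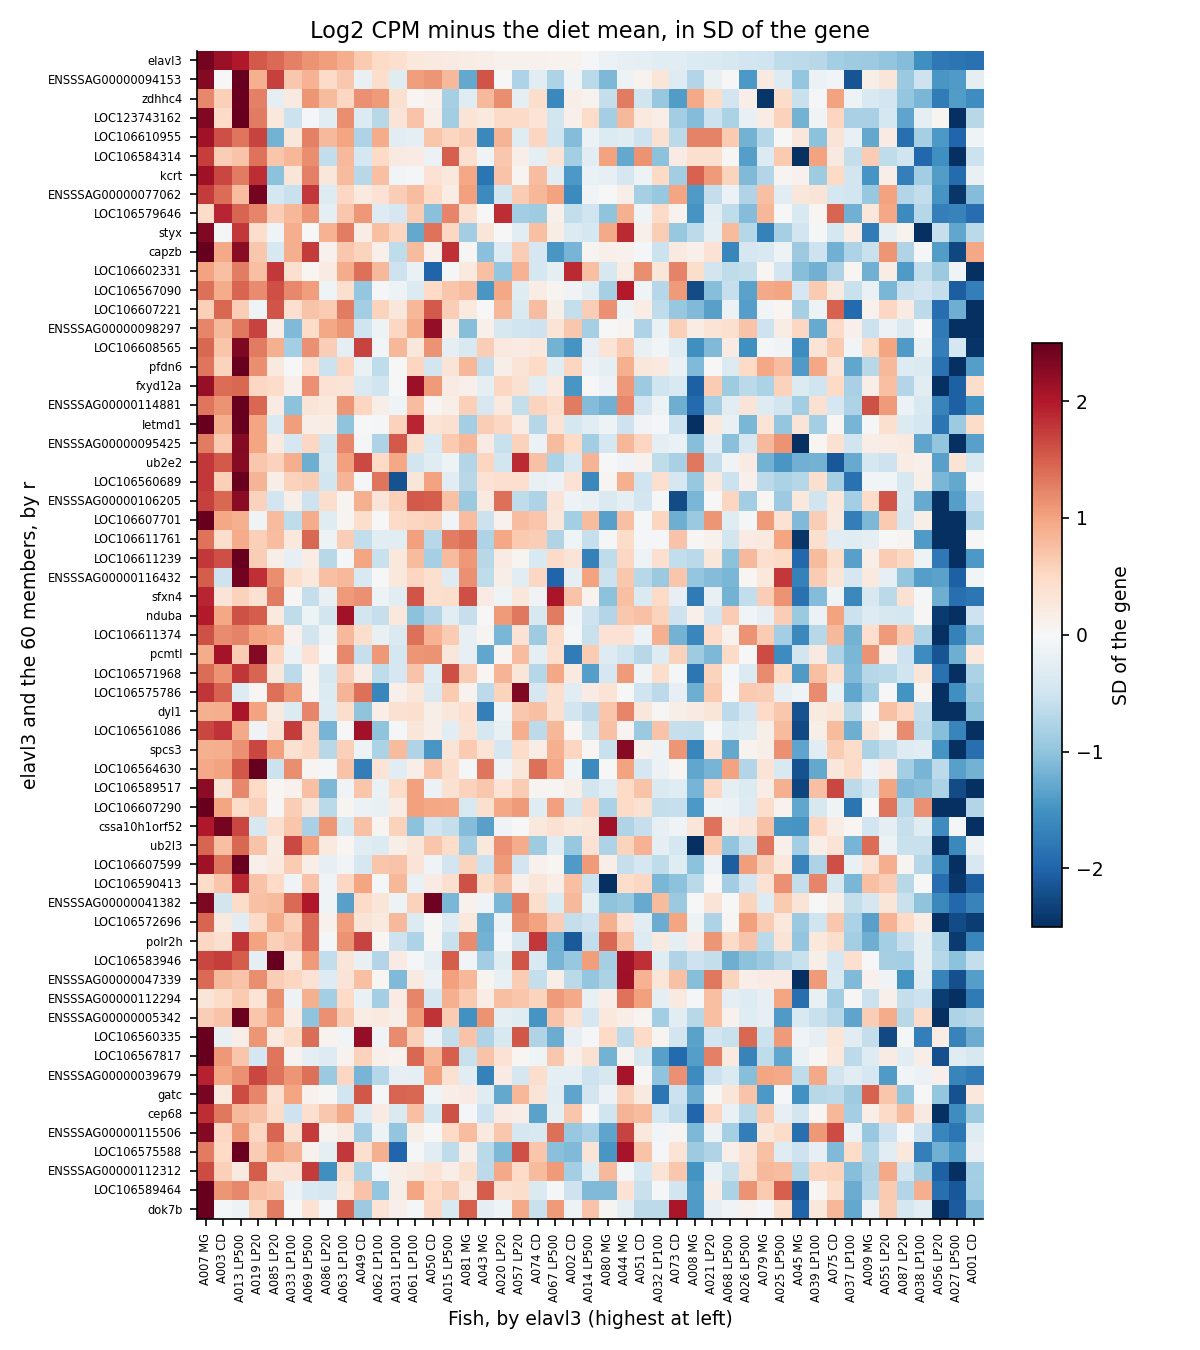
Heatmap of *elavl3* (top row) and the 60 members, ordered downwards by r, in the 45 fish, ordered by *elavl3* from the highest at the left; colour is log2 CPM minus the diet mean in SD of the gene. The 3 fish at the left (A007, A003 and A013) are red for 54 to 60 members and the 3 at the right (A056, A027 and A001) are blue for 55 to 59. Some fish between are as one-sided, such as A019 with 54 members above its diet mean.

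The members with symbols are described by what each is known to do, and no functional group among them was tested. *zdhhc4* (chromosome 28, 15285679 to 15289910, r = 0.635, 10.1 CPM) encodes a protein of the family that attaches palmitate to other proteins. *styx* (r = 0.596, 6.28 CPM) encodes a catalytically inactive phosphatase, and *capzb* (r = 0.593, 147 CPM) the beta subunit of the protein that caps actin filaments. *capzb* was also one of the steadiest members, with a within-diet SD of 0.09 log2.

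*pfdn6* (r = 0.587, 25 CPM) encodes a subunit of prefoldin, the chaperone that hands unfolded actin and tubulin to the chaperonin. *spcs3* (r = 0.543, 26.6 CPM) encodes a subunit of the signal peptidase of the endoplasmic reticulum. *ub2e2* (r = 0.568, 14.6 CPM) and *ub2l3* (r = 0.537, 128 CPM) bear the names of ubiquitin-conjugating enzymes.

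*letmd1* (r = 0.575, 91.3 CPM) encodes a protein of the inner mitochondrial membrane, *nduba* (r = 0.552, 34.4 CPM) bears the name of a subunit of respiratory complex I, *sfxn4* (r = 0.553, 18.5 CPM) encodes a sideroflexin and *gatc* (r = 0.522, 9.40 CPM) a subunit of the mitochondrial glutamyl-tRNA amidotransferase. *letmd1* and *gatc* overlapped exons of the opposite strand over 16.6% and 36.3% of their exonic bases. The rest of the named genes included *fxyd12a* (r = 0.584, 92.6 CPM), of the family that regulates the sodium pump, *dyl1* (r = 0.544, 88.1 CPM), named for a dynein light chain, *polr2h* (r = 0.532, 7.44 CPM), a subunit shared by the nuclear RNA polymerases, and *cep68* (r = 0.522, 114 CPM), a centrosomal protein with an opposite-strand overlap of 11.7%.

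The members of highest abundance were LOC106610955 (324 CPM), *kcrt* (316 CPM) and LOC106611761 (210 CPM). *kcrt* bears the name of the testis isoform of creatine kinase in trout, and creatine kinases buffer ATP through phosphocreatine. It lies on chromosome 9 at 25138529 to 25143769, wholly inside LOC106610955 (25138049 to 25182221) and on the opposite strand, with 100% of its exonic bases under exons of opposite orientation. The ratio of LOC106610955 to *kcrt* was between 0.952 and 1.13 in all 45 fish, and their values correlated at r = 0.980. LOC106567090 (r = 0.591, 4.91 CPM) and ENSSSAG00000039679 (r = 0.525, 3.68 CPM) also overlapped on opposite strands on chromosome 13, with r = 0.917 between them. Fragments were counted by strand, and whether reads of one gene of such a pair were counted for the other was not tested. Counting each pair once leaves fewer separate loci than members.

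The remaining members among the 15 with the highest r had no symbol. LOC123743162 (r = 0.616), LOC106584314 (0.606), LOC106579646 (0.597), LOC106602331 (0.592), LOC106607221 (0.591), ENSSSAG00000098297 (0.589) and LOC106608565 (0.587) were among them, as was ENSSSAG00000077062 (0.599), which overlapped exons of the opposite strand over 94.7% of its exonic bases. This overlap was 41.6% for ENSSSAG00000094153, 46.4% for LOC123743162, 48.1% for LOC106567090, 25.8% for LOC106608565, 22.3% for LOC106610955 and 5.5% for LOC106579646. Further down the ranking it was 44.8% for ENSSSAG00000114881, 16.2% for ENSSSAG00000039679, 10.2% for LOC106611374, 32.3% for ENSSSAG00000106205, 8.2% for LOC106589464 and 26.6% for *dok7b*. It was also 46.2% for ENSSSAG00000005342, 35.6% for ENSSSAG00000095425, 33.9% for ENSSSAG00000047339 and 26.9% for LOC106560335. An overlap of over 25% was found in 14 of the 60 members, a larger share than the 13.6% among the genes ranked.

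The members differed from all genes ranked in median exon length, level and spread. Exon length was not part of the rule. Level and spread were not independent of it, since it set a lower limit on mean CPM and ranked the same log2 values that give the SD. Their median exon length was 2240 bp, against 3840 bp for all genes ranked, and 46 of 60 were shorter than that second value. Their median level was 26.5 CPM against 9.84 CPM, and their median within-diet SD was 0.19 log2 against 0.29 log2 for all genes ranked. Counting error, which is smaller at higher levels, gave a median SD of 0.07 log2 in the members and 0.12 log2 in all genes ranked. These are descriptions, and how far level and counting error set the rank of a gene was not tested.

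By position, the members lay on 25 chromosomes or scaffolds. Chromosome 9 held 9 of them (15%), where it held 5.64% of the genes ranked, and 2 of the 9 were the overlapping pair of *kcrt* and LOC106610955. The others on chromosome 9 were *styx*, *pcmtl*, *pfdn6*, LOC106611239, LOC106611374, LOC106611761 and ENSSSAG00000106205, spread from 1161256 to 82771896. On chromosome 3, which carries *elavl3*, there were 2 members, the nearer one at 2474741 bp from it. Of the 4 ranked genes within 100 kb of *elavl3*, LOC106601057, which overlaps its end on the opposite strand, had r = 0.452 and the other 3 had r between -0.043 and 0.097.

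Among themselves the members had a median pairwise r of 0.447 over 1770 pairs (-0.058 to 0.980). Apart from the overlapping pairs, the highest values were between *pfdn6* and LOC106611239 (0.850), *pfdn6* and LOC106571968 (0.832), and *dyl1* and LOC106611761 (0.826). The 60 genes are thus not 60 independent observations, and a shift of a few fish moves many of them.

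The neuron markers varied together, but not with *elavl3*. Of 42 listed, 10 were matched and 6 were tested, and their r with *elavl3* ran from -0.178 (*mapta*, a microtubule-associated protein) to 0.206 (*scg2b*, a granin of dense-core vesicles), with a median of 0.032. Between them lay *stmn2b* (-0.084), a tubulin-binding protein of growing neurites, *stxbp1a* (0.020) and *sypa* (0.075), both of the synaptic vesicle machinery, and *prph* (0.043), the intermediate filament of peripheral neurons. Of these markers, *scg2b*, *sypa* and *stxbp1a* averaged below 1 CPM and could not have been members. The median r between the 6 markers was 0.554. *stmn2b*, *scg2b*, *prph*, *sypa* and *stxbp1a* each correlated with the mean of the other 5 at between 0.631 and 0.853, *mapta* being the exception at 0.006. The mean of the list correlated with *elavl3* at r = 0.055 (rho = 0.020). Without the 2 far fish, with the diet means of all fish kept, r was 0.096.

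The level of *elavl3* also stood apart from theirs. Per kb of exon it had 4.38 CPM, against 1.62 for *prph*, 0.954 for *mapta*, 0.753 for *stmn2b* and 0.348 for *scg2b*. Its paralog *elavl4* (HuD) was at 0.0945 CPM per kb, with 0.373 CPM on average and 0 in the lowest fish, and *elavl2* (HuB) at 0.00439 CPM per kb. Neither of the paralogs passed the filter on low counts.

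In the other neural and endocrine lists r with *elavl3* was also low, while the genes of a list varied together in some lists only. The 5 enteric transmitter genes tested had r between -0.150 (*nos1*, which makes nitric oxide) and 0.133 (*tac1*, the precursor of substance P), with a median r of 0.524 among themselves. The 4 glial markers had r between -0.096 and 0.150 with *elavl3* and a median of 0.665 among themselves. The median r within the list was 0.161 for the enteroendocrine genes, 0.105 for the neural crest, 0.108 for synaptic vesicles, 0.122 for neuronal ion channels and -0.275 for neuronal RNA-binding proteins. The 6 enteroendocrine genes had r between -0.264 (*pcsk1*, a prohormone convertase) and 0.168 (*insl5a*, a hormone of colonic endocrine cells in mammals, at 89.4 CPM). *chga*, the granin used most often to mark such cells, was at 0.663 CPM with r = 0.155. Neither *chga* nor *pcsk1* (0.577 CPM) reached the 1 CPM needed to be ranked. The synaptic vesicle list (8 tested) had r up to 0.288 (*unc13a*, 17.4 CPM, place 1797 of the 27876 genes ranked). The neuronal ion channel list (5 tested) had r up to 0.284 (*scn3b*, 7.1 CPM, place 1896). The 3 neural crest genes tested had r between -0.06 (*ret*) and 0.241 (*gfra1a*, 10.3 CPM, place 2881).

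Of the other cell type lists, the highest r was that of the goblet marker and the lowest were those of immune cells. *agr2*, a disulfide isomerase of goblet cells and the 1 goblet marker matched out of 5 listed (388 CPM), had r = 0.412 with *elavl3* (rho = 0.303) and 0.677 with the mean of the members. Its level ran from 200 to 672 CPM on MG, from 328 to 507 CPM on CD, from 166 to 456 CPM on LP20, from 228 to 448 CPM on LP100 and from 184 to 758 CPM on LP500. The T cell list (*cd3e* and *cd8a*, 2 of 5 listed) had r = -0.355 with *elavl3* and -0.493 with the members' mean, and the macrophage list (*mpeg1.1* and *cd68*, with *marco* at 0 in all fish) -0.396 and -0.574. The B cell list (*cd79b* alone) had -0.257 and -0.476. The part of these markers in the members' variation was not tested.

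Smooth muscle and fibroblast markers, which vary strongly between these fish, did not follow *elavl3*. The smooth muscle list had a median r of 0.871 among its 5 genes and r = 0.062 with *elavl3*, and the fibroblast list had 0.944 and 0.026. The difference of smooth muscle and enterocyte lists had r = 0.014 with *elavl3* and -0.153 with the members' mean, and 47 of 60 members were kept after it was regressed out. The log2 total count had r = 0.101 with *elavl3* and -0.118 with the members' mean. The number of genes with a count had -0.054 and -0.35. The log2 TMM factor, which scales a library for its composition, had -0.247 and -0.402. The part of these measures in the members' variation was not tested.

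**Figure D4:**
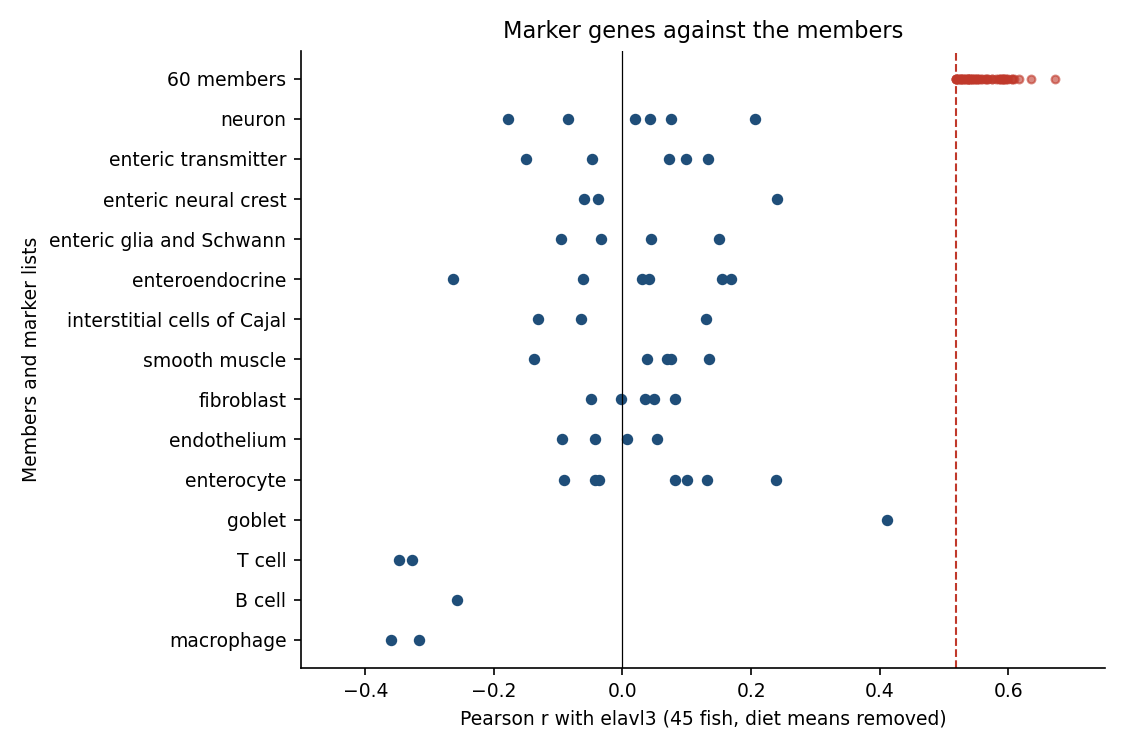
Pearson r with *elavl3* of the 60 members (top line, red) and of each tested marker gene of 14 lists (blue), by list; the dashed line is the limit of the members at 0.518. The neural, endocrine, muscle and stromal markers scatter about 0, the goblet marker *agr2* lies at 0.412 and the T cell, B cell and macrophage markers lie between -0.360 and -0.257.

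Diet was compared next, since the diet means were removed before the ranking and the contrasts with CD were thus not used by it. Almost no member was called. With MG, 0 of 60 members were called higher and 0 lower by edgeR at an adjusted p of 0.05, where 0% of 31729 genes tested were called in either direction, and 1 member was higher at an unadjusted p below 0.05, where 5.42% of all genes were higher and 1.71% lower. With LP20, 0 members were called in either direction, where 0% of all genes were called, and 2 were lower at an unadjusted p below 0.05, where 8.75% of all genes were higher and 4.13% lower. DESeq2 called 0 members for both diets. Its calls over all genes are not given here, so this count is not read as a result about the members.

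With LP100, 0 members were called higher, where 3.6% of all genes were called higher, and 0 were called lower, where 0.473% were called lower. The direction was nevertheless shared, for 55 of 60 members had a log2 fold change below 0, as did 53.1% of all genes, and the median was -0.11 in the members and -0.02 in all genes tested. At an unadjusted p below 0.05 there were 8 members lower and 0 higher, where 6.72% of all genes were lower and 11.8% higher. As the members vary together, their directions do not count as 60 separate ones.

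The smallest adjusted p at LP100 was that of *dok7b*. It had 84.3, 110 and 148 CPM (lowest, median and highest fish) on LP100, against 117, 143 and 224 CPM on CD, so that the ranges overlapped. Its log2 fold change was -0.44 ± 0.14 (SE, edgeR adjusted p = 0.0649). DESeq2 called it (log2 fold change -0.44, adjusted p = 0.0479), as did edgeR without label run 3 of LP100 (-0.54, adjusted p = 0.0470) and without label run 2 of LP20 (-0.44, adjusted p = 0.0485). Next came ENSSSAG00000114881, at -0.21 ± 0.07 (edgeR adjusted p = 0.0929). *dyl1* and ENSSSAG00000047339 followed, each with a log2 fold change of -0.20 ± 0.08 (edgeR adjusted p = 0.170). *dyl1* had 73.3, 81.1 and 83.8 CPM on LP100 against 80.3, 92.8 and 102 CPM on CD.

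With LP500, 1 member was called higher, where 7.45% of all genes were called higher, and 0 were called lower, where 3.21% were called lower. At an unadjusted p below 0.05 there were 2 members higher and 1 lower, where 14% of all genes were higher and 10.9% lower. In all, 41 of 60 had a log2 fold change above 0, as did 49.9% of all genes, with a median of 0.05 in the members and 0.00 in all genes tested.

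The member called was *zdhhc4*. It had 9.13, 11.8 and 17.0 CPM on LP500 (lowest, median and highest fish), against 7.36, 9.54 and 11.1 CPM on CD. The ranges overlapped, and 5 of 9 LP500 fish lay above the highest CD fish and 7 above the CD median. Its log2 fold change was 0.34 ± 0.11 (SE, edgeR adjusted p = 0.0387), and DESeq2 gave 0.33 (adjusted p = 0.0323). The call was lost without any 1 of 6 of the 18 fish of both diets (CD fish A001, A002, A003 and A051, LP500 fish A013 and A069), where the adjusted p reached 0.0992, and with the smooth muscle minus enterocyte lists as covariate (log2 fold change 0.26, adjusted p = 0.747). Leaving out CD label run 1 or 2, or LP500 label run 1 or 2, lost the call too (edgeR adjusted p between 0.0547 and 0.193). So did counts summed per label run (edgeR adjusted p = 0.145) and no filter on low counts (edgeR adjusted p = 0.0735). On the other diets *zdhhc4* had medians of 9.18 CPM on MG, 9.11 CPM on LP20 and 10.1 CPM on LP100, and none was called against CD.

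Among the other members at LP500, LOC106567817 was the nearest to the threshold in the lower direction, with 35.1, 41.5 and 46.3 CPM on LP500 against 39, 46.7 and 50.7 CPM on CD and a log2 fold change of -0.18 ± 0.07 (edgeR adjusted p = 0.0602). It was called besides *zdhhc4* when LP500 fish A015 was left out, where 4713 of 31983 genes tested were called. ENSSSAG00000039679 had the largest log2 fold change, 0.67 ± 0.32 (edgeR adjusted p = 0.187). *kcrt* had 239, 345 and 431 CPM on LP500 against 238, 304 and 422 CPM on CD (edgeR adjusted p = 0.557).

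**Figure D5:**
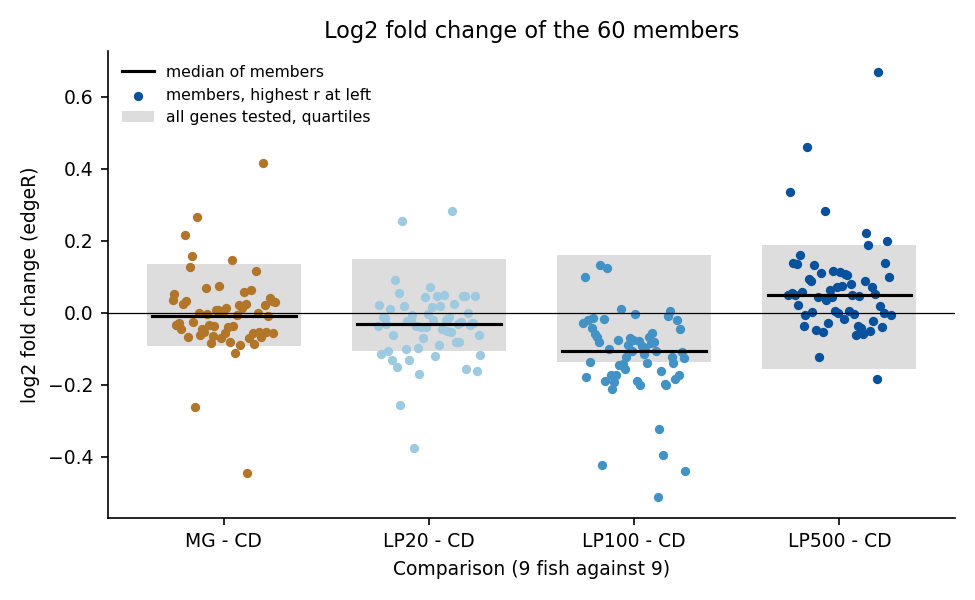
Log2 fold change (edgeR) of the 60 members for each diet over CD; points are members, with the highest r at the left of each column, the black line is their median and the grey box spans the quartiles of all genes tested. Most members lie within the grey box, the members' median is -0.11 for LP100 and 0.05 for LP500, and *dok7b* and *zdhhc4* lie at -0.44 and 0.34.

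The neural lists were read in the same contrasts. With LP500, 4 of the 6 neuron markers tested were called higher than CD by edgeR, *stmn2b* (log2 fold change 1.44, adjusted p = 0.00872), *scg2b* (2.49, adjusted p = 0.00773), *prph* (2.16, adjusted p = 0.0119) and *sypa* (2.35, adjusted p = 0.0187), as were 3 of 5 enteric transmitter genes and 2 of 4 glial markers. *stxbp1a* (1.22, adjusted p = 0.0637) and *mapta* (-0.34, adjusted p = 0.263) were not called. In the other neural lists, 1 of 8 synaptic vesicle genes (*sypa* again) and 1 of 5 neuronal ion channel genes were called higher. The counts were 0 of 3 for neural crest genes and 0 of 2 for neuronal RNA-binding genes. Of all genes tested, 7.45% were called higher with LP500 and 3.6% with LP100. With LP100, 0 of 6 neuron markers and 2 of 5 enteric transmitter genes were called higher. So were 1 of 4 glial markers and 1 of 5 neuronal ion channel genes. LP20 and MG had 0 calls in these lists, as in all genes tested. The 4 neuron markers called with LP500 were above CD but uncalled on the other diets. Their log2 fold changes were 1.07 to 1.85 on LP20, 1.01 to 1.82 on LP100 and 0.47 to 1.32 on MG. The list calls were not repeated with fish left out or with the smooth muscle minus enterocyte lists as covariate. The 6 enteroendocrine genes had 0 calls in each diet. The summed level of the neuron list ran from 8.92 to 39.4 CPM on LP500 against 9.54 to 18 CPM on CD. Smooth muscle markers moved with them, with 4 of 5 called higher and a summed level of 765 to 4210 CPM on LP500 against 585 to 1390 CPM on CD. Fibroblast and endothelium markers did so too, with 5 of 5 and 4 of 4 called higher. Their summed levels were 71.1 to 1030 and 6.28 to 40.7 CPM on LP500, against 48.7 to 316 and 4.07 to 16.1 CPM on CD. The part of these 3 lists in the neuron calls was not tested. Whether the change of the markers differed from that of *elavl3* was not tested either.

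Across all 5 diets at once, edgeR called 0 members, where 0.041% of all genes were called, with the smallest adjusted p of 0.108 for *dyl1* and 9 members below an unadjusted p of 0.05, where 19.7% of all genes were. Between label runs within diets, 0 members were called, where 0% of all genes were called, and 0 members were below an unadjusted p of 0.05, against 5.59% of all genes. For *elavl3* the label-run test gave an unadjusted edgeR p of 0.205. This test used variation from which the members were chosen and is given as a description.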

How the data were processed

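RNA-seq counts of 45 fish were used. The authors aligned read pairs to Ssal_v3.1 with the nf-core rnaseq workflow and deposited raw counts per Ensembl gene, per the file headers from featureCounts v1.5.1 with strand setting 2; exon length, the other value the authors deposited, was used per kb. The study's methods and the labels differ in extraction kit and limit of RNA integrity. Diets came from the labels, which do not name the tank of a fish. Their numbers form 3 runs of 3 consecutive fish per diet. Neither the labels nor the study's methods say that a run is a tank. Tank was thus not a term in the main tests, and p-values measure the spread between fish and may be too small.

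Totals were 9660750 to 22377591 counts per fish (median 14634308). Genes were named by position in the RefSeq table of the same assembly (overlap of at least 0.5 of the joint span), which matched 30322 genes. CPM used TMM scaling, with a prior count of 2 on the log2 scale. Diets were tested in R v4.3.3 by the quasi-likelihood test of edgeR v4.0.16, fitted to the 45 fish together on diet alone, after filterByExpr and with Benjamini-Hochberg adjustment at 0.05. DESeq2 v1.42.0 was an alternative, as were other scaling, no filter, label-run sums, a composition covariate and leaving out label runs or fish. The scripts were tested on simulated data. Members, lists and tests were chosen with earlier results of these data known. Named genes were *elavl3*, the 15 members with the highest r, the 3 genes on each side of the limit, called members and the 3 most abundant; other named members were chosen after their values were seen.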

Additional observations from a re-analysis of the deposited data

Results flagged for a closer look

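Of 100 groups of 9 fish (20 genes in 5 diets), 6 held a fish far from the other 8 by Dixon's test, where chance alone marks about 1 in 20 groups. MG fish A007 had 47.1 CPM of *elavl3*, where the next fish had 36.6 CPM, and 169 CPM of *capzb*, where the next had 146 CPM. LP500 fish A013 had 100 CPM of ENSSSAG00000094153, where the next had 84.0 CPM, and 32.8 CPM of LOC123743162, where the next had 21.9 CPM. CD fish A050 had 83.3 CPM of ENSSSAG00000094153, where the next had 76.4 CPM. LP20 fish A056 had 122 CPM of LOC106611761, the lowest of its diet, where the next had 188 CPM. Fish A007, A013 and A056 also stood at the ends of the order by *elavl3*. The genes tested were *elavl3* and members chosen for following it in these same fish, so the rule favours this. For the same reason the 100 groups are not independent, and the rate of 1 in 20 is only a rough guide.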

How the results depend on the processing

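The counts of members called were 0 for LP20 and MG under all 21 alternatives of each, and 0 for any difference among diets under both of its alternatives. For LP100 the count was 1 with DESeq2 and between 0 and 1 when label runs were left out. For LP500 it was 0 with no filter, 0 with counts summed per label run and 0 with the composition covariate, and it ran from 0 to 1 when label runs, and from 0 to 2 when single fish, were left out. It was 0 without CD label run 1, CD label run 2 or LP500 label run 2, and without CD fish A001, A002, A003 or A051 or LP500 fish A013 or A069, and 2 without LP500 fish A015. With single fish left out, edgeR called between 1505 of 31911 genes tested (without LP500 fish A013) and 4713 of 31983 (without LP500 fish A015). Calls over all genes thus also differed, and for the other alternatives they are not given here. These member counts are therefore not read as a result about the members. Without LP500 label run 1 the member count was 1, but *zdhhc4* was not called there (edgeR adjusted p = 0.164), so the call was that of another member. The log2 fold change of *zdhhc4* at LP500 ran from 0.26 to 0.41 over 39 alternatives, and 26 of them kept its call. Of the 60 members, 36 were kept with Spearman rho, 24 with label-run means removed and 26 without MG fish A007 and CD fish A003, and 43 to 60 under the other 6 settings. The log2 difference of *elavl3* ran from 0.10 to 0.24 for LP500 and from -0.01 to 0.13 for LP100 when label runs were left out, with the only negative value, -0.005, without LP100 label run 3, and it was 0.20 for LP500 without CD fish A003. Fewer fish entered a test when fish or label runs were left out. The cause of these changes was not tested. No paired analysis was possible because the fish of each diet are different animals, their numbers within a diet are only names, and the labels give no litter, batch or tank shared between diets.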
